A study of Rattus norvegicus with 12 samples.

Results

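The comparison described here set rat cortical neuroglial cultures that received the total secretome of human glial progenitor cells (GPCs) against cultures that received nothing (intact control, IC). The members are 6 libraries of the 12 in the series, 3 per group, and the 12790 gene names of 28111 that reached a TPM (a share of all transcripts, corrected for transcript length) of 1 or more in at least 3 of these 6 libraries. The cultures were prepared from the cortex of newborn Wistar rats and were used at 10 days in vitro. The total secretome was added at 45 µg/mL and RNA was taken 4 h later. The series also holds 3 libraries of cultures given extracellular vesicles at 10 µg/mL (EV) and 3 given proteins of 3 to 100 kDa at 15 µg/mL, each also taken at 4 h, and these are used only to show where the response to the total secretome differed. All groups share the culture medium and, according to the study's methods, the cytosine arabinoside that limits glial division. The GPCs were derived from human induced pluripotent stem cells of a single donor, so a human preparation acted on rat cells. For the medium from which vesicles were isolated, the methods describe growth of the GPCs with EGF and CNTF, a wash and a serum-free collection period. How the total secretome was prepared is not given in the sources used here. The study's methods say in general that experiments were repeated on unrelated cultures, and the study names a day covariate for the IC and EV libraries, but no source used here ties a library to a culture, an animal or a day. The p-values therefore measure the spread between these libraries, part of which may be technical. IC cultures received no addition, and the act of adding fluid and the content of the secretome therefore cannot be told apart.

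A secretome is everything that cells release into their medium, both soluble proteins and vesicles. Growth factors and cytokines that reach a cell act through surface receptors on kinase cascades. The ERK cascade switches on immediate early transcription factors (Fos, Egr and relatives) within minutes and, through them, its own brakes (dual-specificity phosphatases and Sprouty proteins). The gp130 cascade acts through the transcription factor STAT3 and is known in the cortex for the reactive state of astrocytes, which enlarge their intermediate filament network and express receptors such as Osmr and Cd44. In neurons the same early factors are also switched on by electrical activity, calcium and cyclic AMP.

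Neuronal and astrocyte genes were both well expressed. The summed level of 10 neuronal markers lay between 3931 and 4246 TPM in IC and between 3187 and 4042 TPM with the secretome, and that of 10 astrocyte markers between 1068 and 1537 TPM in IC and between 1466 and 1864 TPM with the secretome, so both ranges overlapped. Between libraries of the same replicate number, however, the neuronal sum was lower with the secretome in all 3 (4042 against 4246, 3234 against 3931 and 3187 against 3981 TPM) and the astrocyte sum was higher in all 3 (1466 against 1308, 1864 against 1537 and 1518 against 1068 TPM). Microglial markers summed to at most 3.19 TPM and endothelial markers to at most 0.566 TPM in the 6 libraries. Cultures of this age are a mixture, and in RNA from whole cultures fewer cells of a type and less RNA per cell cannot be told apart. The 6 libraries differed in mitochondrial transcripts (4.52 to 8.02%) and ribosomal protein transcripts (4.10 to 8.53%), and IC replicate 2 held the lowest mitochondrial and the highest ribosomal protein share. That library also correlated less with the other IC libraries (Pearson r = 0.953 and 0.941 across genes) than these did with each other (0.969). The files keep no read depth, so no counting error can be given.

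The total secretome changed 252 genes of 12790 (1.97%) at a false discovery rate (FDR) of 0.05, of which 215 rose (1.68% of those tested) and 37 fell (0.289%). With p below 0.05 before adjustment and more than a 1.5-fold change, 709 genes were higher (5.54%) and 325 lower (2.54%). Log2 fold changes are secretome minus IC on log2(TPM + 1), tested with limma over all genes. The median fold change was 2.71 among the 215 genes that rose and 2.08 among the 37 that fell. All 252 genes had libraries that did not overlap between the groups, which was also true of 13% of all genes tested in the upward and 11% in the downward direction.

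**Figure D1:**
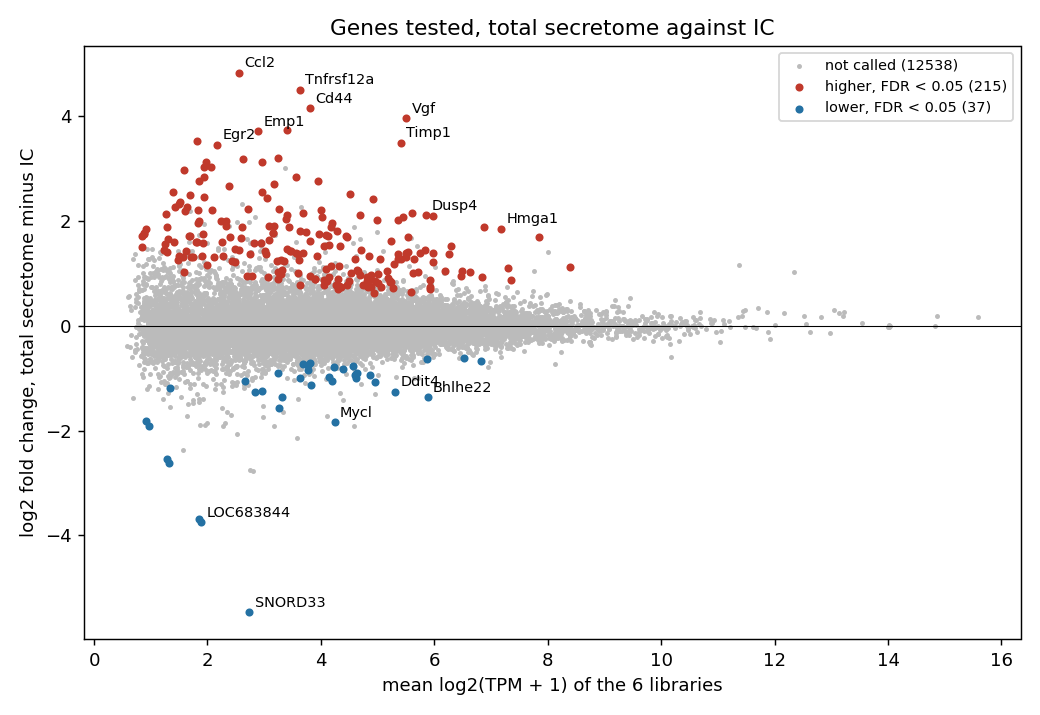
Log2 fold change (total secretome minus IC) against the mean log2(TPM + 1) of the 6 libraries, 1 point per gene tested. The 215 genes that rose (red) and the 37 that fell (blue) at FDR 0.05 are drawn over the genes not called (grey), and Vgf, Timp1 and Hmga1 lie at higher levels than Ccl2 and Egr2.

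The number of calls depended on each library. Leaving out IC replicate 1 left 68 higher and 5 lower genes, leaving out IC replicate 2 gave 528 and 240, and leaving out IC replicate 3 gave 136 and 11. Without total secretome replicate 1 the counts were 139 and 15, without replicate 2 they were 34 and 6, and without replicate 3 they were 35 and 3. The 252 genes kept their direction in all 6 of these fits, and 31 of the 215 and 3 of the 37 passed FDR 0.05 in each of them. The 31 include Vgf, Emp1, Dusp4, Tnfrsf12a, Nptx2, Dusp14, Egr2, Hmga1, Cd44, Lmna, Osmr, Fosb, Dusp6, Cav1, Stat3 and Timp1, and the 3 are Mycl, LOC683844 and SNORA27. Of the 215 genes, 28 were under 1 TPM in all IC libraries and entered the test only through the secretome libraries, so their difference was in part a condition of entry. Among members of the function lists these were Fosb, Fosl1, Maff, Egr2, Osmr, Gbp2, Ccl2, Ccl7, Plau, Serpinb2, Itga5, Hspb1, Adm, Slc1a5, Clcf1 and Sphk1. Likewise 8 of the 37 genes that fell were under 1 TPM in all secretome libraries and entered only through IC, among them LOC683844 and SNORA27.

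**Figure D2:**
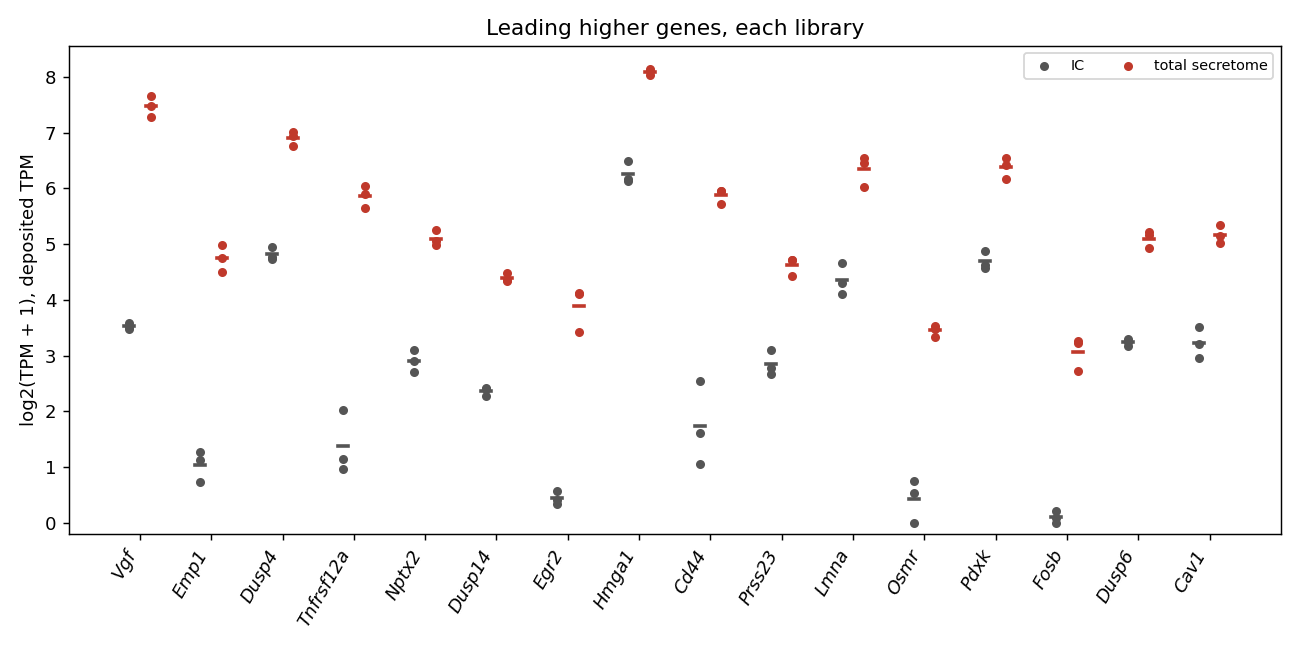
Deposited TPM as log2(TPM + 1) for each of 16 leading higher genes, with 1 point per library and a bar at the group mean, in IC (grey) and with the total secretome (red). In all 16 genes the 3 secretome libraries lie above the 3 IC libraries, and the gap is widest for Tnfrsf12a and Cd44.

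Several secreted peptides and other products of neuronal activity rose. Of 20 genes in this list, all tested, 7 rose at FDR 0.05, none fell, and the median log2 fold change was 0.89, beside −0.01 over all genes tested. Over all genes tested 1.68% rose and 0.289% fell, which is the reference for the count of each list below. Vgf, a neuropeptide precursor that the files name LOC100909521, read 10.49, 10.18 and 11.02 TPM in the IC libraries and 202, 177 and 154 TPM with the secretome. The 3 secretome libraries were far above a narrow IC group (log2 fold change 3.96 ± 0.12 SE, adjusted p = 3.145e-05), the lowest p of all genes. Nptx2, a pentraxin that clusters AMPA receptors at synapses, moved from 7.589, 6.517 and 5.495 TPM to 30.5, 37.4 and 32.3 TPM (2.21 ± 0.16, adjusted p = 0.00268). Scg2, a granin of dense-core vesicles, moved from 55.6, 37.3 and 46.1 TPM to 138, 119 and 140 TPM (1.53 ± 0.17, adjusted p = 0.00745). The neurotrophin gene Bdnf was low, at 2.64, 1.33 and 1.09 TPM in IC and 10.8, 7.74 and 7.46 TPM with the secretome, and also rose (1.89 ± 0.24, adjusted p = 0.0115). Arc, which regulates AMPA receptor uptake, Crem, a cyclic AMP responsive repressor, and Gadd45b, a growth arrest protein, were the other 3 genes of the list that rose, with log2 fold changes of 1.99, 1.43 and 1.59. Gadd45b did not pass when the replicate number was a block (adjusted p = 0.0619). Between 2 and 7 of the 7 calls remained when 1 library was left out, with 2 (Vgf and Nptx2) remaining without total secretome replicate 3. Npas4, a factor specific to neuronal depolarisation, read 1.11, 0.630 and 0.428 TPM in IC and 1.15, 0.972 and 3.35 TPM with the secretome, so the groups overlapped (adjusted p = 0.441).

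The promoters of 3 of these genes are shown because they hold the cyclic AMP response element (TGACGTCA, its own reverse complement, in capitals) upstream of the annotated start. They are read 5′ to 3′ on the strand of the gene from the RefSeq promoter table of build GRCr8, which is not the build of the files.
Vgf, chr12:25277091-25277122 (minus strand), 102 to 71 bases upstream: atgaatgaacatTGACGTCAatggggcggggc
Scg2, chr9:88256970-88257001 (minus strand), 135 to 104 bases upstream: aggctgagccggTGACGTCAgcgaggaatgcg
Crem, chr17:58984729-58984760 (plus strand), 68 to 37 bases upstream: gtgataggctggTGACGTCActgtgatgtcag
The element was in the 250 upstream bases of 6 of the 164 genes that rose and have a promoter in the table (3.66%), of 300 of the 9568 such genes among all tested (3.14%) and of 490 of all 27457 in the table (1.78%). The share among the genes that rose was thus close to that among genes tested, and a match of letters says nothing of binding.

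Some immediate early transcription factors of the AP-1 and Egr families rose as well. In the AP-1 and ATF list 5 of 9 members rose, none fell, and all 9 values were above 0 (median log2 fold change 1.76). Fosb had 0, 0.0669 and 0.159 TPM in IC and 5.61, 8.61 and 8.33 TPM with the secretome. It was close to absent in the control (2.97 ± 0.25, adjusted p = 0.00317). Fosl1, which encodes Fra-1, gave 0, 0.138 and 0 TPM in IC and 5.59, 13.7 and 16.2 TPM with the secretome (3.51 ± 0.40, adjusted p = 0.0084). Fos was already present in IC at 4.46, 4.06 and 2.24 TPM and reached 15.5, 22.5 and 21.6 TPM (2.23 ± 0.25, adjusted p = 0.00879). Fosl2, encoding Fra-2, and Maff, a small Maf partner, rose with log2 fold changes of 1.76 and 2.19. The partners from the Jun side did not pass: Jun had a log2 fold change of 0.69, Junb of 0.73 and Jund of 0.14, and their adjusted p-values were 0.194, 0.158 and 0.829. Whether they differ from the Fos genes was not tested. Fosb was the 1 gene of the 5 that kept its call without total secretome replicate 2, and Fosb, Fosl1 and Maff were under 1 TPM in all IC libraries.

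In the list of Egr, Nr4a and other early factors 4 of 19 tested members rose, Ier2 is not analysed here, 18 of 19 values were above 0, and the median log2 fold change was 0.99. Egr2 moved from 0.332, 0.269 and 0.481 TPM to 9.69, 16.5 and 16.3 TPM (3.45 ± 0.28, adjusted p = 0.00312). Egr1 moved from 13.0, 11.8 and 9.94 TPM to 35.2, 62.3 and 64.4 TPM (2.10 ± 0.27, adjusted p = 0.0116), with total secretome replicate 1 lower than the other two. Ier3, a stress-inducible survival factor, and Klf10, a TGF-β-inducible repressor, rose with log2 fold changes of 2.76 and 1.51. Egr3, Egr4, Nr4a1 and Zfp36 lay at 1.05, 1.09, 1.30 and 1.25 on the log2 scale, which passed the unadjusted threshold but not the FDR. Btg2, an antiproliferative gene of the same list, went the other way (−0.81, adjusted p = 0.19). Egr2 alone kept its call in every omission of a library. The other 3 calls were absent without IC replicate 1, total secretome replicate 2 or total secretome replicate 3.

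CArG boxes, the sites of serum response factor, stood in the promoters of Egr1, Egr2 and the phosphatase gene Dusp5, shown here with the boxes in capitals.
Egr1, chr18:26736961-26737016 (plus strand), 117 to 62 bases upstream: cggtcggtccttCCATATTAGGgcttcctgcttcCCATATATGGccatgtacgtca
Egr2, chr20:21054503-21054536 (minus strand), 95 to 62 bases upstream: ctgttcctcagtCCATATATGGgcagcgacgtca
Dusp5, chr1:262543680-262543723 (plus strand), 94 to 51 bases upstream: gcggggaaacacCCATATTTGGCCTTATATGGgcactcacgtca
The Egr1 stretch and the Dusp5 stretch each hold 2 boxes and the Egr2 stretch 1. A CArG box was present in 4 of the 164 genes that rose (2.44%), in 122 of 9568 tested genes (1.28%) and in 445 of 27457 genes of the table (1.62%). The palindromic STAT site (TTCCNGGAA) was present in 3 of 164 (1.83%), 104 of 9568 (1.09%) and 324 of 27457 (1.18%).

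Several negative regulators of ERK signalling rose. Of 15 dual-specificity phosphatases, Sprouty and Spred genes and Errfi1, all tested, 7 rose and none fell, with a median log2 fold change of 0.95. Dusp4, a nuclear phosphatase of ERK, read 25.7, 26.2 and 29.7 TPM in IC and 122, 128 and 107 TPM with the secretome (2.10 ± 0.14, adjusted p = 0.00194). Dusp6, the cytoplasmic phosphatase that is specific to ERK, moved from 8.84, 8.05 and 8.54 TPM to 29.4, 36.0 and 34.9 TPM (1.87 ± 0.16, adjusted p = 0.00338). Dusp14 moved from 4.32, 3.86 and 4.32 TPM to 21.4, 19.4 and 19.3 TPM (2.04 ± 0.15, adjusted p = 0.0027). In all 3 genes the spread within a group was small beside the gap. Spry4, an inhibitor of receptor tyrosine kinase signalling, rose from 5.27, 4.14 and 6.27 TPM to 20.4, 28.7 and 30.4 TPM (2.16 ± 0.25, adjusted p = 0.00887), and Spry2, Spred3 and Dusp5 rose with log2 fold changes of 1.21, 1.43 and 1.30. Dusp1, the phosphatase best known as an early stress gene, did not share this: it read 9.47, 10.0 and 7.76 TPM in IC and 5.27, 6.67 and 6.60 TPM with the secretome (−0.47, adjusted p = 0.275). Dusp4, Dusp6 and Dusp14 passed in every omission, and no other member did. Etv5, a transcription factor regarded as a readout of ERK, rose from 23.5, 30.3 and 28.6 TPM to 74.4, 77.3 and 65.4 TPM (1.39 ± 0.15, adjusted p = 0.00768). It was added to this group after its values were seen.

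In the gp130 pathway the receptor subunit Osmr, the transcription factor Stat3, the feedback inhibitor Socs3 and the target Timp1 rose, and the shared receptor did not pass the test. Of 20 genes 14 were tested and 4 rose, with a median log2 fold change of 0.41. Osmr, the receptor subunit for oncostatin M, read 0, 0.682 and 0.451 TPM in IC and 9.15, 10.7 and 10.1 TPM with the secretome (3.02 ± 0.25, adjusted p = 0.00312). Stat3 moved from 29.0, 29.1 and 25.7 TPM to 67.1, 81.0 and 75.3 TPM (1.40 ± 0.14, adjusted p = 0.00481). Timp1, a metalloproteinase inhibitor, moved from 9.24, 19.7 and 8.90 TPM to 97.0, 170 and 169 TPM (3.49 ± 0.36, adjusted p = 0.00585). Socs3, which shuts the receptor complex off, was low at 1.45, 1.18 and 0.699 TPM and reached 3.42, 4.46 and 4.52 TPM (1.31 ± 0.23, adjusted p = 0.0393), and did not pass with the replicate block (adjusted p = 0.0643). The shared receptor Il6st was at 24.2, 15.8 and 28.8 TPM in IC and 27.4, 27.0 and 30.7 TPM with the secretome, with overlapping groups (0.35, 95% interval −0.21 to 0.91). The ligands Il6, Lif and Osm of this list were under 1 TPM in all 6 libraries and were not tested. Clcf1, a cytokine outside this list, rose among the reactive astrocyte genes and was under 1 TPM in all IC libraries. Osmr, Stat3 and Timp1 passed in every omission.

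Many tested genes of the reactive astrocyte state rose. Of 23 genes 15 were tested, 10 rose and none fell (median log2 fold change 1.71), and of these 10, 5 (S1pr3, Timp1, Osmr, Cd44 and Emp1) passed in every omission. Of the 10, Osmr, Hspb1, Clcf1 and Sphk1 were under 1 TPM in all IC libraries and entered only through the secretome libraries. Emp1, an epithelial membrane protein, read 1.43, 0.664 and 1.18 TPM in IC and 30.5, 26.0 and 21.8 TPM with the secretome (3.71 ± 0.20, adjusted p = 0.000771). Cd44, the hyaluronan receptor, moved from 4.87, 1.09 and 2.08 TPM to 51.8, 60.8 and 61.2 TPM (4.15 ± 0.34, adjusted p = 0.00312). S1pr3, a receptor for sphingosine 1-phosphate, moved from 4.84, 7.10 and 3.60 TPM to 34.1, 51.9 and 33.7 TPM (2.75 ± 0.25, adjusted p = 0.00398). The intermediate filament genes were more variable. Vim, encoding vimentin, had 107, 196 and 101 TPM in IC and 331, 515 and 412 TPM with the secretome and rose (1.70 ± 0.29, adjusted p = 0.0333). Gfap had 85.1, 361 and 128 TPM in IC and 271, 636 and 408 TPM with the secretome, where IC replicate 2 lay above the lowest secretome library, and did not pass (1.40, 95% interval 0.12 to 2.68, adjusted p = 0.269). With the replicate number as a block Gfap did pass (adjusted p = 0.0252). Other astrocyte markers differed less, with log2 fold changes of 0.27 for Aqp4, 0.40 for Slc1a3 and 0.09 for Aldh1l1, and none of the 10 markers passed FDR 0.05. The part of the astrocyte share in these values was not tested. Lcn2 and C3, often used to mark reactive astrocytes, were under 1 TPM in all 6 libraries. Osmr, Cd44, Timp1, Vim, Hspb1 and S100a10 stand in more than 1 list and are counted in each.

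**Figure D3:**
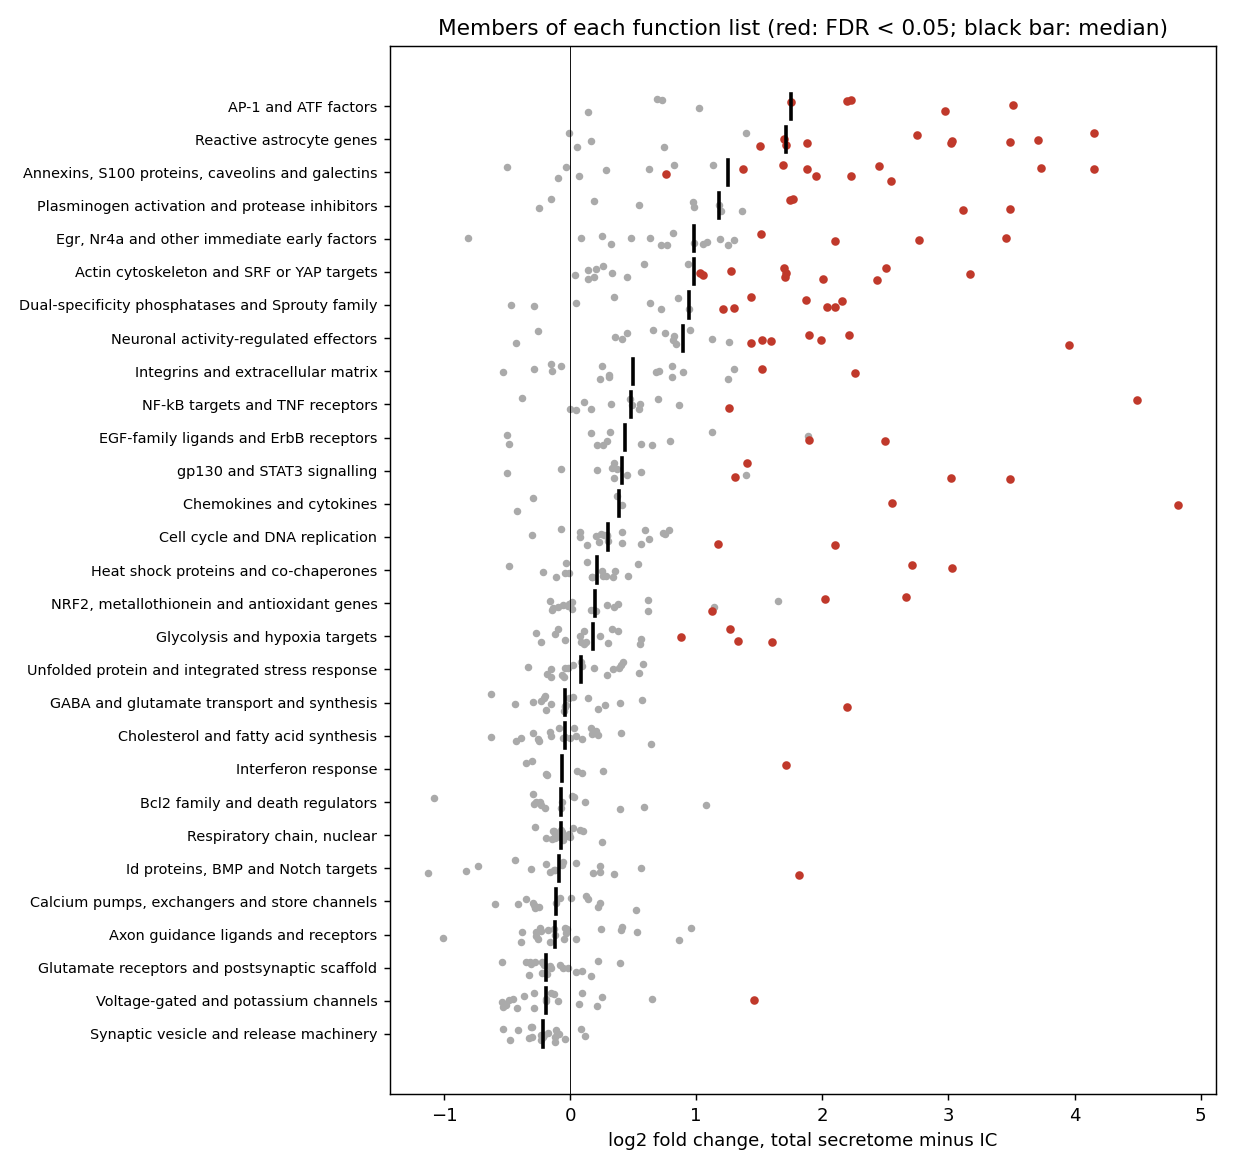
Log2 fold change (total secretome minus IC) of the tested members of 29 function lists, ordered by their median (black bar), with members at FDR 0.05 in red and others in grey; a gene of several lists appears in each. The AP-1, reactive astrocyte and annexin lists lie to the right and the synaptic vesicle list lies slightly to the left of 0.

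A pair of TNF family receptors and a pair of monocyte-attracting chemokines rose, and 1 gene of the interferon list did. Among 14 tested genes of the NF-kB and TNF receptor list 2 rose, Tnfrsf12a and Tnfrsf1a. Tnfrsf12a, the receptor for TWEAK, moved from 0.953, 3.10 and 1.23 TPM to 49.4, 58.8 and 65.3 TPM (4.50 ± 0.30, adjusted p = 0.00209), the second largest fitted difference after Ccl2 among genes that rose. Tnfrsf1a, the main TNF receptor, moved from 16.4, 15.8 and 12.6 TPM to 33.3, 39.4 and 37.2 TPM (1.26 ± 0.15, adjusted p = 0.00894), and the subunits Nfkb1 and Relb had log2 fold changes of 0.70 and 0.86 that did not pass (adjusted p = 0.0912 and 0.175). Ccl2 read 0.378, 0 and 0 TPM in IC and 9.61, 68.9 and 39.4 TPM with the secretome, a wide range that stayed above IC in each library (4.82 ± 0.65, adjusted p = 0.0136). Its neighbour in function, Ccl7, read 0, 0.3003 and 0 TPM and then 2.089, 11.02 and 5.859 TPM (2.55 ± 0.48, adjusted p = 0.0487). These were 2 of 6 tested chemokines and cytokines, 15 of the 21 listed not being tested because they were too low. Both were under 1 TPM in all IC libraries and entered the test only through the secretome libraries. Of the 8 tested genes of the interferon list, Gbp2 alone rose, from 0.878, 0.891 and 0.636 TPM to 4.76, 6.26 and 3.81 TPM (1.72 ± 0.22, adjusted p = 0.0116), and the median of the list was −0.06. Ifitm3, an interferon-inducible membrane protein outside the list that was picked after its values were seen, also rose, from 1.42, 2.69 and 2.73 TPM to 8.01, 12.8 and 11.8 TPM (1.87 ± 0.29, adjusted p = 0.024). Tnfrsf12a kept its call in every omission. The calls of Tnfrsf1a, Ccl2, Ccl7 and Gbp2 were lost without IC replicate 1 and without either total secretome replicate 2 or 3.

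Several genes of membrane organisation and of the actin cytoskeleton rose. In the list of annexins, S100 proteins, caveolins and galectins 10 of 18 tested members rose and none fell (median log2 fold change 1.25). Cav1, the caveolar coat protein, read 10.4, 6.81 and 8.31 TPM in IC and 34.5, 39.4 and 31.3 TPM with the secretome (1.95 ± 0.17, adjusted p = 0.00338). Its partners Cav2 and Cavin1 (Ptrf in the files) rose with log2 fold changes of 1.69 and 2.23. Anxa2, which forms a membrane-binding complex with S100a10, moved from 2.73, 3.58 and 1.01 TPM to 16.6, 20.0 and 16.5 TPM (2.54 ± 0.29, adjusted p = 0.00894), and S100a10 from 44.46, 84.91 and 60.02 TPM to 187, 250 and 241 TPM (1.88 ± 0.27, adjusted p = 0.0175). Lgals3, Spp1 and Pdpn, encoding galectin-3, osteopontin and podoplanin, rose with log2 fold changes of 3.73, 2.45 and 1.37, and Anxa7, at 0.76, did not pass with the replicate block (adjusted p = 0.0601). S100b, a marker of astrocytes, had a log2 fold change of −0.03. In this list 2 calls (Cav1 and Cd44) remained without total secretome replicate 2 and 3 without replicate 3.

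In the actin list 10 of 20 tested members rose and all 20 values were above 0 (median log2 fold change 0.98). Lmna, encoding the nuclear lamins A and C, moved from 18.9, 24.4 and 16.3 TPM to 92.8, 87.2 and 64.5 TPM (2.01 ± 0.17, adjusted p = 0.00312). Tagln2, an actin-bundling protein, moved from 9.42, 12.6 and 5.41 TPM to 53.2, 57.2 and 49.5 TPM (2.51 ± 0.24, adjusted p = 0.00467). Cnn2, a calponin, moved from 13.3, 10.4 and 9.83 TPM to 33.7, 39.8 and 40.7 TPM (1.71 ± 0.17, adjusted p = 0.00471). The focal adhesion genes Actn1, Vcl and Zyx rose with log2 fold changes of 1.27, 1.71 and 1.05, and Ccn1 (Cyr61 in the files), a matricellular protein, with 3.17. Srf, the factor that drives many of these genes, was at 15.4, 15.4 and 12.8 TPM in IC and 16.2, 13.2 and 16.5 TPM with the secretome (0.08, 95% interval −0.28 to 0.45). Lmna, Tagln2 and Cnn2 were the members that passed in every omission, and 3 calls remained without total secretome replicate 2 or 3.

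AP-1 sites (TGANTCA on either strand, in capitals) are shown for 4 genes that rose, from 4 different groups, namely a reactive astrocyte gene, a phosphatase, an antioxidant gene and an annexin.
Emp1, chr4:169944006-169944160 (plus strand), 224 to 70 bases upstream: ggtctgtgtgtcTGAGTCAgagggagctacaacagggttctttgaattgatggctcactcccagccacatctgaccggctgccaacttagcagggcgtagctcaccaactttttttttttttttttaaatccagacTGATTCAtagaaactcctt
Dusp14, chr10:69452412-69452442 (minus strand), 101 to 71 bases upstream: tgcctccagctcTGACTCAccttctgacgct
Srxn1, chr3:161064738-161064768 (plus strand), 74 to 44 bases upstream: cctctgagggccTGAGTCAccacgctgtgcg
Anxa2, chr8:78986117-78986147 (plus strand), 135 to 105 bases upstream: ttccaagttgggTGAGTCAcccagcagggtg
An AP-1 site stood in the 250 upstream bases of 18 of the 164 genes that rose and could be matched (11%), of 409 of 9568 tested genes (4.27%) and of 1918 of all 27457 genes of the table (6.99%). A gene counted when any of its annotated promoters held a site. None of the 24 matched genes that fell held any of the 4 motifs. These shares are descriptions of letters in a short window, with no test.

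Extracellular proteolysis and matrix genes rose in part. Of 13 tested genes of plasminogen activation and its inhibitors 4 rose and 9 were past the unadjusted threshold, and the median of the list was 1.18 (log2). Plat, the tissue plasminogen activator, moved from 7.27, 8.86 and 6.71 TPM to 18.9, 35.9 and 30.0 TPM (1.74 ± 0.27, adjusted p = 0.0234). Plau, the urokinase gene, read 0.892, 0 and 0.287 TPM in IC and 5.04, 10.7 and 20.5 TPM with the secretome (3.11 ± 0.50, adjusted p = 0.0264). Serpinb2, an inhibitor of both, was listed at 0 in the 3 IC libraries and at 2.80, 2.23 and 2.22 TPM with the secretome. Timp1 completes the 4 and was the 1 that passed in every omission. Among 18 tested integrin and matrix genes Itga5, the fibronectin receptor subunit, rose from 0.662, 0.147 and 0.523 TPM to 5.27, 6.07 and 5.99 TPM (2.26 ± 0.23, adjusted p = 0.00587), and so did Lamc1, a laminin chain, from 9.91, 7.96 and 8.66 TPM to 23.0, 30.0 and 28.1 TPM (1.52 ± 0.18, adjusted p = 0.00894). Both calls were lost without total secretome replicate 2 and without replicate 3.

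Some cell protection genes rose. Bag3, a co-chaperone of protein quality control, rose from 2.48, 3.65 and 1.74 TPM to 17.9, 23.8 and 24.5 TPM (2.71 ± 0.25, adjusted p = 0.00398). Hspb1, the small heat shock protein that works with it, rose from 0.709, 0.865 and 0 TPM to 17.4, 10.6 and 6.82 TPM (3.03 ± 0.34, adjusted p = 0.00845). They were the 2 calls among 18 tested heat shock genes, whose median was 0.22. Srxn1, a sulfiredoxin that restores peroxiredoxins, rose from 1.34, 1.09 and 0.859 TPM to 8.82, 15.7 and 12.7 TPM (2.66 ± 0.26, adjusted p = 0.00467). Hmox1, haem oxygenase, rose from 11.96, 19.87 and 13.82 TPM to 45.1, 77.1 and 70.3 TPM (2.02 ± 0.28, adjusted p = 0.0165), and Mt2A, a metallothionein, rose with a log2 fold change of 1.12. These were the 3 calls among 22 antioxidant genes (median 0.20), of which 7 were past the unadjusted threshold, and Gclc, the rate-limiting enzyme of glutathione synthesis, had 1.14 (adjusted p = 0.0664). Bag3 and Srxn1 kept their calls in every omission, Hspb1 lost its call without total secretome replicate 2, and Hmox1 and Mt2A lost them without IC replicate 1, total secretome replicate 2 or total secretome replicate 3. In the unfolded protein and integrated stress list 0 of 19 tested genes passed FDR 0.05, and the median was 0.09. Since 1.97% of all genes passed, this count of 0 is near the background. Atf4, its central factor, read 204, 235 and 179 TPM in IC and 356, 298 and 262 TPM with the secretome (0.58, adjusted p = 0.074).

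Some growth and energy genes rose. Ccnd1, encoding cyclin D1, rose from 25.9, 40.4 and 24.6 TPM to 94.6, 153 and 146 TPM (2.10 ± 0.27, adjusted p = 0.0117), and its inhibitor Cdkn1a (p21) rose from 24.3, 22.8 and 29.0 TPM to 54.0, 59.5 and 59.1 TPM (1.18 ± 0.17, adjusted p = 0.0167). The other 20 cell cycle genes tested did not pass. Of the 22 tested values 20 were above 0, with a median log2 fold change of 0.30. Fgf2 rose from 0, 0.187 and 1.11 TPM to 6.28, 8.47 and 5.69 TPM (2.50 ± 0.33, adjusted p = 0.0124). Hbegf, an EGF receptor ligand, read 12.4, 11.1 and 11.2 TPM in IC and 23.2, 54.9 and 69.9 TPM with the secretome, and its log2 fold change of 1.89 did not pass (adjusted p = 0.0671, and 0.0461 with the replicate block). Of 20 tested glycolysis and hypoxia genes 4 rose (Pfkfb3, Ndrg1, Adm and Hk2), with log2 fold changes of 1.27, 0.88, 1.60 and 1.33, and the median was 0.18. Id1, a target of BMP signalling, rose by a log2 fold change of 1.81 (from 8.63, 5.45 and 3.70 TPM to 24.99, 19.34 and 22.03 TPM, adjusted p = 0.0121), while the Notch genes Dll1 and Hes5 of the same list had values of −0.82 and −1.13 that did not pass (adjusted p = 0.0664 and 0.104). All of these calls were lost without total secretome replicate 2 and without replicate 3.

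Other leading genes outside the lists were Hmga1, Pdxk and Prss23. Hmga1, a chromatin architectural protein, was abundant, at 69.2, 89.1 and 70.9 TPM in IC and 260, 283 and 274 TPM with the secretome (1.85 ± 0.15, adjusted p = 0.00312). Pdxk, the kinase that makes active vitamin B6, moved from 22.9, 28.6 and 23.9 TPM to 84.8, 92.0 and 71.3 TPM (1.70 ± 0.14, adjusted p = 0.00312). Prss23, a secreted serine protease, moved from 7.54, 5.88 and 5.39 TPM to 25.4, 25.4 and 20.7 TPM (1.80 ± 0.15, adjusted p = 0.00312). These 3 genes passed in every omission.

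No synaptic vesicle or glutamate receptor gene passed the test, and most of their values lay slightly below 0. Of 21 genes of the synaptic vesicle and release machinery, all tested, 0 passed FDR 0.05 by limma and 0 passed at the unadjusted p with a 1.5-fold change, 19 had values below 0, and the median log2 fold change was −0.22. Over all genes tested 6620 of 12790 values were below 0, and with 0.289% of genes falling at FDR 0.05 a count of 0 among 21 is near the background. Neuronal marker genes lay at a median of −0.18 with 7 of 10 below 0, beside their lower sum in each same-numbered pair of libraries, and their part in these values was not tested. Syn2, encoding synapsin II, read 42.8, 37.5 and 43.8 TPM in IC and 30.8, 28.7 and 24.7 TPM with the secretome, which did not overlap (−0.53, 95% interval −0.83 to −0.23, adjusted p = 0.102). Syp, encoding synaptophysin, read 309, 310 and 259 TPM and then 300, 231 and 219 TPM, with overlap (−0.22, 95% interval −0.50 to 0.07). Of 22 glutamate receptor and scaffold genes 17 were below 0, with a median of −0.19, and Gria1, an AMPA receptor subunit, had −0.35 (adjusted p = 0.223). In the channel list Kcna1, a potassium channel of axons, was the 1 of 20 tested genes that rose, from 2.94, 1.46 and 2.99 TPM to 8.60, 8.30 and 7.69 TPM (1.46 ± 0.24, adjusted p = 0.0283). In the list of GABA and glutamate transport Slc1a5, a glutamine transporter, was the 1 of 20, from 0.704, 0.653 and 0.680 TPM to 3.70, 7.50 and 10.1 TPM (2.20 ± 0.36, adjusted p = 0.0272). Both calls were lost without IC replicate 1, total secretome replicate 2 or total secretome replicate 3. No gene passed FDR 0.05 among 15 calcium pumps and store channels, 23 axon guidance genes, 21 genes of lipid synthesis, 15 Bcl2 family and death regulators or 20 nuclear respiratory chain genes, and the medians of these lists lay between −0.12 and −0.04. Of all genes tested 1.97% passed, so a count of 0 in lists of this size is near the background. Epha4, an ephrin receptor, came closest in the guidance list, with 82.7, 55.5 and 86.0 TPM in IC and 40.6, 31.3 and 35.5 TPM with the secretome (−1.01, adjusted p = 0.0539, and 0.0224 with the replicate block).

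The 37 genes that fell were all outside the function lists, which says little about the lists because 0.289% of all genes fell. Mycl, the L-Myc transcription factor of the Myc family, read 36.7, 37.0 and 31.9 TPM in IC and 10.5, 7.80 and 8.72 TPM with the secretome (−1.84 ± 0.14, adjusted p = 0.00289). The 3 secretome libraries lay well below all IC libraries, and the gene passed in every omission. Mxd4, a partner of Max that opposes Myc, fell from 32.5, 42.0 and 28.4 TPM to 16.2, 17.4 and 15.3 TPM (−0.99 ± 0.16, adjusted p = 0.0273). Ccng2, an atypical cyclin linked to growth arrest, fell from 49.6, 37.1 and 46.9 TPM to 19.3, 21.0 and 19.9 TPM (−1.08 ± 0.16, adjusted p = 0.0175). Ddit4 (REDD1) and Sesn1 (sestrin 1), both inhibitors of mTORC1, fell together. Ddit4 went from 70.1, 69.2 and 46.2 TPM to 31.2, 20.4 and 22.9 TPM (−1.26 ± 0.18, adjusted p = 0.0175), and Sesn1 from 17.1, 17.6 and 17.5 TPM to 9.74, 8.78 and 8.67 TPM (−0.85 ± 0.14, adjusted p = 0.0283). Dbp, an output factor of the circadian clock, fell from 18.28, 15.97 and 11.81 TPM to 6.66, 5.60 and 3.71 TPM (−1.36 ± 0.20, adjusted p = 0.0206). Dact1, an antagonist of Wnt signalling, fell from 37.5, 29.0 and 32.3 TPM to 17.3, 15.4 and 16.5 TPM (−0.94 ± 0.14, adjusted p = 0.0197), and Klf11, a Krüppel-like repressor, from 18.9, 16.7 and 14.6 TPM to 8.81, 6.36 and 8.03 TPM (−1.01 ± 0.17, adjusted p = 0.0283). Amotl2, an angiomotin of the Hippo pathway, had a log2 fold change of −0.82, and Narf, Wscd2, Dbndd1, Sh2d3c and Dclk3 completed the leading genes that fell, with log2 fold changes between −1.27 and −0.92.

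**Figure D4:**
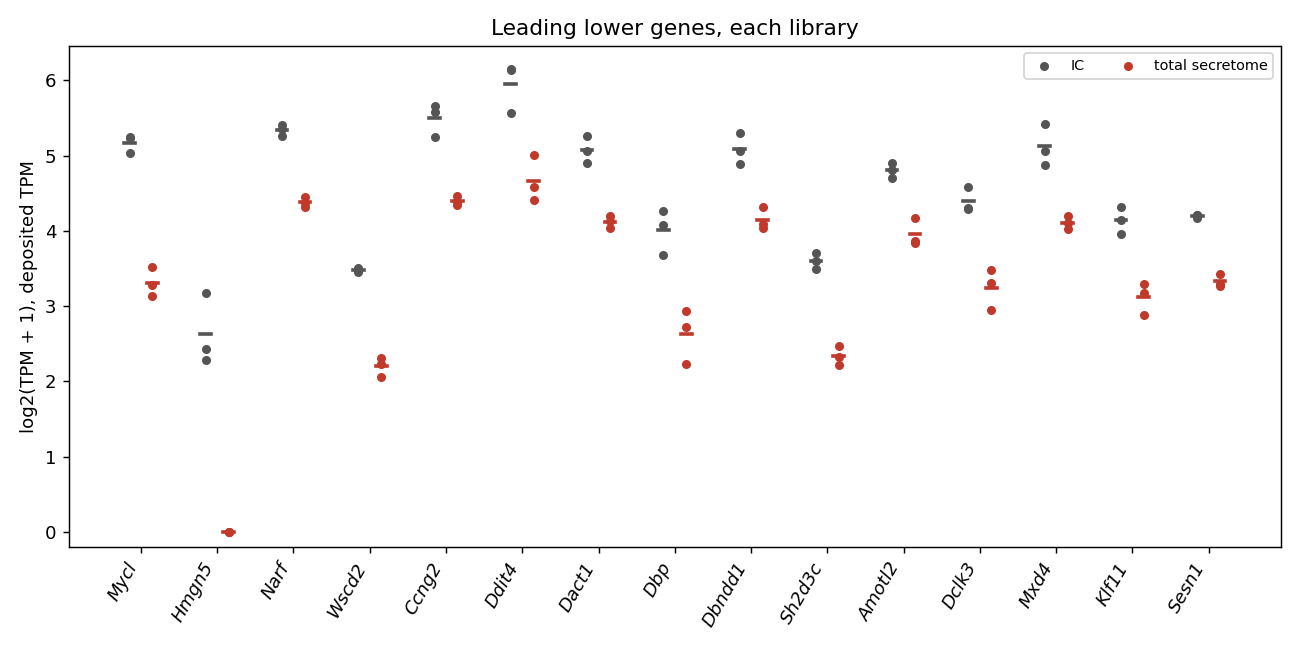
Deposited TPM as log2(TPM + 1) for the 15 leading lower genes, with 1 point per library and a bar at the group mean, in IC (grey) and with the total secretome (red). The secretome libraries lie below the IC libraries in each gene, and Hmgn5 is listed at 0 in all 3 secretome libraries.

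The calls of Ccng2, Dact1, Mxd4, Klf11, Sesn1, Dbndd1, Sh2d3c, Amotl2 and Dclk3 held in 1 omission, the one of IC replicate 2. Those of Ddit4, Dbp, Narf and Wscd2 held in 3. Their directions did not change in any omission.

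Some calls rest on genes listed at 0 in a whole group, for which no fold change is given. A listed 0 may be a failed estimate in these files, because the ribosomal protein gene Rps6 is at 0 in all 12 libraries while Rps3 lies between 517 and 951 TPM. Serpinb2, Cdkn2b, Sphk1 and the clone AABR07052730.3 were at 0 in IC. Cdkn2b, a cyclin-dependent kinase inhibitor, was at 2.02, 1.92 and 3.30 TPM with the secretome, and Sphk1, which makes sphingosine 1-phosphate, at 1.28, 3.54 and 2.34 TPM. On the lower side 7 of the 37 genes were at 0 with the secretome. Among them were LOC683844, at 10.9, 14.2 and 12.8 TPM in IC, the small nucleolar RNAs SNORA27 and SNORD33, at 20.8, 7.91 and 10.1 TPM and at 39.8, 16.9 and 120 TPM, and Hmgn5, a nucleosome-binding protein, at 3.87, 4.40 and 7.99 TPM. Small RNA genes, whose reads a poly(A) library captures poorly, took between 2.95 and 7.46% of the TPM of a library.

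Several of these genes were lower with the vesicles alone than with the total secretome. Tested directly, total secretome against EV, 18 of 12754 genes were higher with the secretome (0.141%) and 6 lower (0.047%) at FDR 0.05. With p below 0.05 before adjustment and more than a 1.5-fold difference there were 326 higher (2.56%) and 182 lower (1.43%) genes, and libraries did not overlap in 7.44% of genes in the upward and 6.95% in the downward direction. The doses differed (45 against 10 µg/mL), so preparation and dose cannot be told apart. Vgf stood at 54.6, 42.0 and 49.0 TPM with EV, between IC and the secretome (secretome minus EV 1.86, 95% interval 1.51 to 2.21, adjusted p = 0.0056). Pdxk stood at 27.4, 29.9 and 29.0 TPM with EV (difference 1.499, 95% interval 1.22 to 1.78, adjusted p = 0.0056). Fosb was at 0.151, 0.0940 and 0.343 TPM with EV (2.82, 95% interval 2.22 to 3.43, adjusted p = 0.00846). In Pdxk and Fosb the EV libraries overlapped those of IC. Fosb was under 1 TPM in all EV libraries and entered this test only through the secretome libraries. Cav1, Scg2, Dusp4, Dusp14, Emp1 and Egr2 were also higher with the secretome, by log2 differences of 1.62, 1.39, 1.35, 1.37, 1.92 and 2.75. With the replicate block Dusp14 (adjusted p = 0.057) and Emp1 (adjusted p = 0.0718) did not pass. Mycl, at 32.7, 28.3 and 24.9 TPM with EV, was lower with the secretome (−1.56, 95% interval −1.96 to −1.16, adjusted p = 0.0224).

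Values against EV are also given for some genes of the gp130 list, for Tnfrsf1a and for Fos, none of which passed. Since 0.188% of all genes passed in this comparison, the 0 of 14 tested gp130 genes is near the background and is no result about the pathway. Stat3 was at 67.1, 83.9 and 76.9 TPM with EV (secretome minus EV −0.01, 95% interval −0.35 to 0.32). Osmr was at 3.08, 13.1 and 12.9 TPM (0.25, 95% interval −0.79 to 1.30), Timp1 at 101, 125 and 95.4 TPM (0.42, 95% interval −0.18 to 1.02) and Tnfrsf1a at 41.1, 40.9 and 30.1 TPM (0.00, 95% interval −0.40 to 0.39). Socs3 was at 6.72, 5.40 and 6.11 TPM, above all 3 secretome libraries (−0.45, 95% interval −0.96 to 0.05, adjusted p = 0.708). Fos was at 21.8, 19.4 and 15.3 TPM with EV (0.08, 95% interval −0.44 to 0.61). The intervals are wide for Osmr and Timp1, and whether the difference of Fosb differs from that of Fos was not tested. The count of genes higher with the secretome was 6 without total secretome replicate 2 or 3, 8 without EV replicate 2, 10 without total secretome replicate 1 and 38 without EV replicate 1, and that of genes lower was 2 without EV replicate 2, 3 without total secretome replicate 3 and 18 without EV replicate 1.

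**Figure D5:**
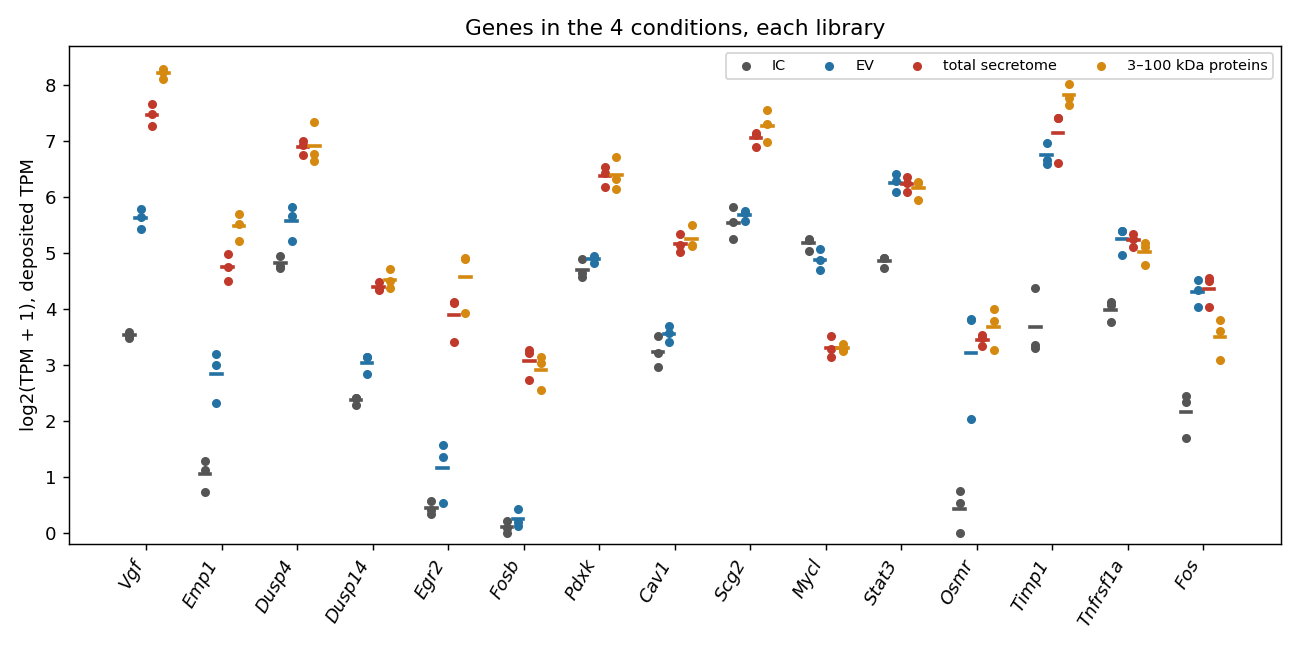
Deposited TPM as log2(TPM + 1) of 15 genes in IC (grey), EV (blue), total secretome (red) and 3 to 100 kDa proteins (orange), with 1 point per library and a bar at the group mean; doses differ between the treatments. Fosb, Pdxk and Mycl with EV lie near IC, Stat3 and Tnfrsf1a lie at a similar level in all 3 treatments, and Vgf is highest with the proteins.

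Few genes separated the total secretome from the 3 to 100 kDa proteins. In the direct test, 1 of 12723 genes was higher with the secretome (SNORA36, 0.00786%) and 1 lower (SNORD12, 0.00786%) at FDR 0.05 by limma, 0.0157% in all. Both are small nucleolar RNAs whose values sum several rows and are at 0 in 1 of the groups. At an unadjusted p under 0.05 there were 337 genes, and 69 higher (0.542%) and 90 lower (0.707%) also differed by more than 1.5-fold. Libraries did not overlap in 3.31% of genes in the upward and 3.22% in the downward direction. At FDR 0.05 the count of higher genes was 0 without proteins replicate 2 or without total secretome replicate 2 or 3, 2 without proteins replicate 1 and 3 without proteins replicate 3, and that of lower genes was 0 without total secretome replicate 2 and 3 without total secretome replicate 1. The doses were 45 and 15 µg/mL. Vgf was at 300, 311 and 276 TPM with the proteins, above all 3 secretome libraries (secretome minus proteins −0.74, 95% interval −0.93 to −0.55, adjusted p = 0.0755). Hmga1 was at 459, 483 and 443 TPM with the proteins, again without overlap (−0.76, 95% interval −0.99 to −0.53, adjusted p = 0.186). The urokinase gene Plau was at 41.1, 54.4 and 97.2 TPM with the proteins (−2.41, 95% interval −3.64 to −1.18, adjusted p = 0.9999, and 0.0197 with the replicate block). Lower values with the proteins were seen for Olig1, an oligodendrocyte lineage factor, at 70.0, 50.5 and 47.4 TPM beside 89.1, 112 and 104 TPM with the secretome (0.86, 95% interval 0.47 to 1.26, adjusted p = 0.862). Fosb, Pdxk, Cav1 and Mycl had differences of 0.15, −0.02, −0.09 and 0.01, with 95% intervals of −0.46 to 0.76, −0.32 to 0.28, −0.38 to 0.20 and −0.34 to 0.37. Differences within these intervals remain possible, and the larger difference of Plau did not pass the main test either.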

How the data were processed

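RNA was sequenced from 12 libraries of rat cortical cultures in 4 groups of 3. According to the study's methods, reads were trimmed with Trimmomatic and Cutadapt and quantified with Salmon against rat transcripts. The TPM values were deposited by the authors as 1 table per library, each summing to 1000000. The unit was inferred from these sums, since the tables do not name it. The labels name a strand-specific mRNA library on DNBSEQ and postnatal day 0 pups, whereas the study's methods name a poly(A) protocol on NextSeq and days 1 to 2. Read depth is unknown, and whole reads could not be recovered from TPM.

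Rows of 1 gene name were summed (497 names had more than 1 row), genes with a TPM of 1 or more in at least 3 of the 6 libraries compared were kept, and values were rescaled by median ratios and set on log2(TPM + 1). Fold changes on this scale understate those of low genes. Groups were compared with limma 3.58.1 in R 4.3.3 (empirical Bayes with a mean-variance trend), fitted on the 6 libraries of each comparison, with Benjamini-Hochberg adjustment over all genes and a threshold of 0.05. The code was tested on simulated data. The comparisons share the total secretome libraries. The members, lists and tests were chosen with earlier results of these data known.

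Named genes were the 15 per direction of lowest p with a symbol, a mean TPM of 5 or more in the higher group, more than a 1.5-fold change and no overlap. Added to these were up to 4 members of each list by p, up to 3 genes per direction listed at 0 in a group, and up to 6 per direction in the comparisons with EV and the proteins. Other genes named, such as Vgf under its LOC identifier, Etv5 and further list members, were chosen after their values were seen.

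Titles give each group the replicate numbers 1 to 3. Same-numbered total secretome and IC libraries deviated together from their group means (r = 0.245, 0.161 and 0.158). The main tests did not use the replicate numbers, and all counts and p-values are unpaired unless the block is named. A fit with the replicate number as a block was an alternative, in which 206 of the 252 genes called against IC remained. The study names a day covariate for the IC and EV libraries, but no source used here says which library belongs to which day. The alternatives tried were the pseudocount, the filter, the scaling, the summing of rows, the trend, all 12 libraries in 1 fit, a replicate block and the omission of each library. Promoters come from a RefSeq table of build GRCr8, while the labels name Rnor 6.0 for the files, so no coordinate of the files was used.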

Additional observations from a re-analysis of the deposited data

How the results depend on the processing

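No called gene changed direction under an alternative that tested it. With a mean TPM of 5 or more, 201 of the 252 genes called against IC and 16 of the 24 against EV were tested, and with rows of 1 name kept apart 250, 21 and, against proteins, 0 of 2. For total secretome against IC, fitting all 12 libraries together gave 425 higher and 114 lower genes, and omission of single libraries gave 34 to 528 higher and 3 to 240 lower genes at FDR 0.05, and 262 to 599 lower genes at the unadjusted threshold. The replicate block gave 214 and 37, with 206 of the 252 genes remaining. For total secretome against EV, 10 genes were higher without a filter, 2 were lower and 212 higher at the unadjusted threshold with a mean TPM of 5 or more, and 47 were higher and 11 lower with all 12 libraries; omissions gave 6 to 38 higher and 2 to 18 lower genes, and 131 to 497 lower at the unadjusted threshold. Its replicate block gave 14 higher and 6 lower genes. For total secretome against proteins, all 12 libraries gave 0 and 0 genes, 3 were lower without rescaling, 2 lower without a trend, and 4 lower with the replicate block, which also gave 106 higher genes at the unadjusted threshold. A mean TPM of 5 or more gave 29 higher and 57 lower there, and omissions gave 0 to 3 genes in each direction at FDR 0.05 and 67 to 141 higher and 78 to 163 lower at the unadjusted threshold. The cause of these shifts was not tested, beyond the smaller number of genes or libraries that some settings hold. Where an omission leaves 2 libraries in a group, limma's pooled spread was used. Where the block changed a call that the report gives, its p stands beside the result. Among the other list members and genes chosen by the naming rule, the block gave adjusted p-values of 0.0344 for Ier5, 0.0342 for Klf7 and 0.0211 for Tac1 against IC (0.126, 0.112 and 0.118 without it), of 0.0336 for Cdkn1a and 0.0858 for Serpinb2 against EV (0.0512 and 0.0336 without it) and of 0.0457 for Errfi1 against proteins (0.9999 without it). The number of libraries, 3 per group, and the unknown depth limit the precision of every value.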

Other observations

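The groups below, and the genes named from them, were chosen after the values were seen, so their counts, medians and p-values are descriptions. Over all genes tested 1.68% rose and 0.289% fell at FDR 0.05, and the median log2 fold change was −0.01, which is the reference for each group here. Among 45 genes of ribosome biogenesis, 11 rose with the total secretome at FDR 0.05, none fell, and the median log2 fold change was 0.44. Gar1, a protein of the box H/ACA particles that guide pseudouridylation of ribosomal RNA, read 23.8, 22.6 and 20.0 TPM in IC and 46.8, 45.4 and 40.9 TPM with the secretome (0.99 ± 0.11 SE, adjusted p = 0.00755). Ddx21, a nucleolar helicase, read 41.8, 28.0 and 39.6 TPM in IC and 71.4, 80.3 and 68.5 TPM with the secretome (1.03 ± 0.18, adjusted p = 0.0344). Of the 11 calls 7 passed with the replicate block, and none remained without total secretome replicate 2 or 3.

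In a list of 17 growth arrest genes linked to FoxO factors 4 fell (Ccng2, Ddit4, Sesn1 and Pik3ip1), with a median log2 fold change of −0.53. Pik3ip1, an inhibitor of PI3 kinase, read 17.2, 18.6 and 12.1 TPM in IC and 5.83, 5.86 and 2.64 TPM with the secretome (−1.58 ± 0.26, adjusted p = 0.029). In the Myc and Mad network 3 of 11 genes fell, namely Mycl, Mxd4 and Mnt, and Mnt did not pass with the replicate block (adjusted p = 0.0619). Values of 4 of the 11 were above 0, among them Myc, at 22.8, 18.3 and 17.3 TPM in IC and 30.4, 35.6 and 34.1 TPM with the secretome, which did not overlap and did not pass (0.77, adjusted p = 0.0512). Among 13 tested regulators of G protein signalling, Rgs4, Rgs16, Rgs17 and Rgs20 rose. Values of 5 of the 13 were below 0, 1 of them past the unadjusted threshold, and the median log2 fold change was 0.30. Rgs4 went from 24.5, 14.7 and 23.8 TPM to 123, 77.0 and 71.8 TPM (2.07 ± 0.24, adjusted p = 0.00894). None of the FoxO-linked or G protein regulator calls remained without total secretome replicate 2 or 3. Among 18 circadian clock and output genes Dbp was the 1 that fell at FDR 0.05 and none rose. Of the 18 values 9 were above 0 and 9 below, with a median log2 fold change of −0.07.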
